A study of Mus musculus with 16 samples.

Results

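The genes of the opioid peptides and of their receptors were examined in whole brain, cerebellum included, of female mice of the inbred strain C57BL/6J in adolescence. They were chosen by symbol: the peptide precursors Penk, Pdyn and Pnoc and the receptors Oprm1, Oprd1, Oprk1 and Oprl1. All 7 were found among the 24062 genes of the count table and among the 23991 genes of the FPKM table. Each of 16 mice gave 1 RNA-seq library, and there were 4 mice in each of 4 groups, all killed on postnatal day 45. The WW (Water-Water) mice drank only tap water. The NW (Nicotine-Water) mice had nicotine at 200 µg/ml in tap water as their drinking solution for 22 h a day and water in the remaining sessions. The Water-Ethanol mice, shown by their initials in the plots, drank water and received 20% v/v ethanol on 4 days by drinking in the dark, where 1 tube replaces the home bottles for a few hours. The NE (Nicotine-Ethanol) mice had both solutions. According to the study, they drank more ethanol in the last session than the Water-Ethanol mice and had higher blood ethanol. Between these groups nicotine and ethanol dose thus cannot be told apart. In every group the last session lasted 4 h and ended with dissection. The nicotine bottles were off the cage during it, so the brains were taken right after ethanol drinking but 4 h after the last access to nicotine. The mice drank freely, were housed singly, and were of 1 sex, which limits the groups as models of exposure.

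Opioid peptides are cut from larger precursor proteins at pairs of basic residues. Proenkephalin, the product of Penk, gives the enkephalins, prodynorphin, from Pdyn, gives the dynorphins and neoendorphins, and prepronociceptin, from Pnoc, gives nociceptin. The receptors couple to inhibitory G proteins, which open inwardly rectifying potassium channels, close calcium channels and lower cyclic AMP. The enkephalins act mainly on the delta receptor (Oprd1) and the mu receptor (Oprm1), the dynorphins on the kappa receptor (Oprk1), and nociceptin on its own receptor (Oprl1). In the striatum Penk marks the medium spiny neurons of the indirect pathway and Pdyn those of the direct pathway. Opioid signalling is known for its part in the reward of both alcohol and nicotine.

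The coding sequences of the precursors show how many peptides 1 transcript carries, and a selection of them is given here. Leu-enkephalin 6 of Penk and core 2 of Pdyn have the same core bases and differ only in the bases beside them. They were read from GENCODE vM21 transcripts on GRCm38, the build of the deposited tables. Each line holds 27 bases of the coding strand, 5′ to 3′, with the 15 bases of the peptide core in capitals and the 6 bases to either side in lower case, and the numbers give the order of the cores in the transcript.
Penk, Met-enkephalin 1: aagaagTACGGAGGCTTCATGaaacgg
Penk, Met-enkephalin 4: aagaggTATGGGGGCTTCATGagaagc
Penk, Met-enkephalin 7: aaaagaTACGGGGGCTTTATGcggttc
Penk, Leu-enkephalin 6: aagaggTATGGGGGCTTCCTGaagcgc
Pdyn, Leu-enkephalin core 1: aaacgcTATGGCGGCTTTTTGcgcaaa
Pdyn, Leu-enkephalin core 2: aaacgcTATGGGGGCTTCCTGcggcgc
Pdyn, Leu-enkephalin core 3: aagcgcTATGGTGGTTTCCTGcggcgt
Pnoc, start of nociceptin: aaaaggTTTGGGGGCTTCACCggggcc
Penk held 6 Met-enkephalin cores and 1 Leu-enkephalin core. Codons for basic pairs stood on both sides of 4 of the 6 Met-enkephalin cores and of the Leu-enkephalin core. Met-enkephalins 4 and 7 lacked the pair after the core, and these are the starts of the longer enkephalins known as the octapeptide and the heptapeptide. All 7 lay in exon 2 of 2 on the minus strand, between the first at chr4:4134328-4134354 and the last at chr4:4133842-4133868. Pdyn held 3 Leu-enkephalin cores in exon 4 of 4 on the minus strand, from chr2:129688232-129688258 to chr2:129688067-129688093, each with basic pairs on both sides. Pnoc held 1 nociceptin, in exon 3 of 4 on the minus strand at chr14:65404872-65404898, and its first bases spell a different opening codon from that of the enkephalin cores.

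On GRCm38, Penk (ENSMUSG00000045573) spans chr4:4133536-4138445 and Pdyn (ENSMUSG00000027400) chr2:129686549-129699938. Pnoc (ENSMUSG00000045731) spans chr14:65400673-65425472. The receptor genes lie at chr10:6788601-7038209 for Oprm1 (ENSMUSG00000000766), chr4:132110726-132144486 for Oprd1 (ENSMUSG00000050511), chr1:5588493-5606133 for Oprk1 (ENSMUSG00000025905) and chr2:181715016-181720985 for Oprl1 (ENSMUSG00000027584). The exons counted for Oprm1 covered 2639 of the 8037 exonic bases that GENCODE gives it, or 32.8%, and those of Oprk1 51.4%, against 86.4% to 100% for the others. An exon of Ipcef1 on the opposite strand shares 68 counted bases with Oprm1, and A830012C17Rik, also on the opposite strand, shares 125 GENCODE bases with Penk. Whether the counts used strand is not given in the sources used here, so reads in these stretches cannot be told apart.

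Total counts ranged from 27100352 to 32880979 per mouse. All 88 genes of 13 marker lists were found and none was at 0 in all mice. The lists covered brain regions and cell types, and also pituitary and olfactory epithelium with bone. A count above 0 in any mouse is a weak condition, so this says little about the tissue. WW replicate 4 and NW replicate 3 stood apart with cerebellum scores (mean centred log2 level of 10 marker genes) of -1.34 and -0.89, against 0.04 to 0.23 in the other mice. WW replicate 3 stood apart in the score of olfactory epithelium and bone, at 2.87 against -1.35 to 0.96 in the other mice, and the summed level of its 5 markers was 2669 normalized counts against 573 to 998 outside WW. Pituitary markers were highest in NW replicate 3 (score 2.58), where the ribosomal RNA gene Rn45s also took 3.90% of counts, against 0.27% to 1.37% in the others. Between the mice with and without ethanol, 3 of the 13 scores differed at an unadjusted exact stratified p under 0.05. The cortex and hippocampus score was lower by 0.09 with ethanol (exact p = 0.0282), the oligodendrocyte score by 0.13 (exact p = 0.0408) and the microglia score by 0.20 (exact p = 0.00163), on the log2 scale. The other exact p values lay between 0.0584 and 0.489, and none of the 13 scores differed so with nicotine (smallest exact p = 0.202).

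Per transcript length, Penk was by far the most abundant of the opioid genes. Its mean was 143 FPKM (the fragments assigned to a gene per kilobase of its transcripts, corrected for library depth) over the 16 mice, with a range of 127 to 156, which put it above 98.2% of all genes. Oprl1 followed at 17.7 FPKM (15.8 to 18.9) and Pdyn at 11.9 (10.4 to 14.2). Below them came Oprd1 at 4.97 FPKM (4.22 to 5.93), Pnoc at 3.33 (2.92 to 3.93), Oprk1 at 2.65 (2.16 to 2.99) and Oprm1 at 1.30 (1.03 to 1.62). The nociceptin receptor was thus the most abundant receptor transcript and the mu receptor the least. Of the neighbours in this order, the ranges of Pnoc and Oprk1 overlapped, although Pnoc was higher than Oprk1 in 16 of 16 mice, and the other ranges did not. Penk stood 8.10 times above Oprl1 in mean FPKM and was 7.15 to 9.40 times above it in single mice. The ratio of Penk to Pdyn in FPKM was 12.1 ± 1.04 in WW, 12.3 ± 0.88 in NW, 12.5 ± 1.15 in Water-Ethanol mice and 11.6 ± 0.39 in NE (mean ± SD over 4 mice each), so the groups overlapped in it. The counts of Oprm1 covered 32.8% of its annotated exon length, and which exons its FPKM covered was not determined.

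**Figure D1:**
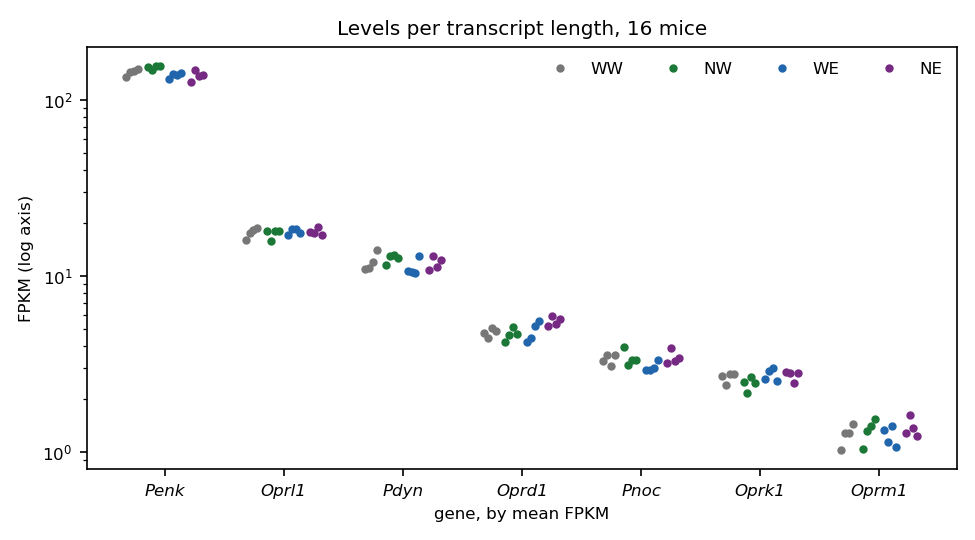
FPKM of each opioid gene in each of the 16 mice on a log axis, with genes ordered by their mean and points coloured by group. Penk lies between 127 and 156 FPKM and Oprm1 between 1.03 and 1.62, and within each gene the 4 groups sit at nearly the same height.

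The spread between mice was smallest for the genes with most reads, Penk and Oprl1, and largest for Oprm1, which had fewest, but did not follow reads in between. Oprm1 had 71 to 137 counts per mouse and Penk 4697 to 6488. Within groups the coefficient of variation was 4.67% for Penk, 5.22% for Oprl1, 7.28% for Oprk1, 8.44% for Pnoc, 8.70% for Oprd1, 10.2% for Pdyn and 12.9% for Oprm1. Counting error alone would give 1.36% for Penk, 3.54% for Pdyn, 7.21% for Pnoc and 9.86% for Oprm1. Counting error was thus a larger part of the spread in Pnoc and Oprm1 than in Penk and Pdyn. The spread left beyond counting error was not compared between genes.

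Counts were normalized by TMM factors to a common library size, and each pair of groups was compared with edgeR's quasi-likelihood test over all genes. No opioid gene passed an adjusted p of 0.05 in any of the 8 comparisons, all 7 being tested in each. The background was as sparse in most of them: the share of all tested genes called was 0% for NW minus WW, 0.457% for Water-Ethanol minus WW, 0.313% for NE minus WW, 0% for NE minus Water-Ethanol and 0% for NE minus NW. In the fit of all 16 mice it was 4.5% for the ethanol effect (Water-Ethanol and NE against WW and NW), 0% for the nicotine effect (NW and NE against WW and Water-Ethanol) and 0% for the interaction. The 0 calls among the 7 genes are thus near the background in every comparison. Before adjustment, 1 of the 7 had p under 0.05 in NW minus WW, where 8.44% of all genes did, and 0 of 7 in Water-Ethanol minus WW against 19.3%. The counts were 1 against 17.5% in NE minus WW, 1 against 5.8% in NE minus Water-Ethanol and 2 against 11.9% in NE minus NW. For the ethanol effect 1 of 7 had such a p, against 22.9% of all genes. For the nicotine effect and the interaction 0 of 7 did, against 10.3% and 6.76%. With DESeq2 1 of the 7, Penk, was called for the ethanol effect, where it called 7.83% of all genes with an adjusted p. In the other comparisons it called 0 opioid genes, and there its share of all genes was 0.994% for NW minus WW, 5.14% for Water-Ethanol minus WW, 4.3% for NE minus WW, 0.0101% for NE minus Water-Ethanol, 0.765% for NE minus NW, 0.967% for the nicotine effect and 0.0049% for the interaction. It gave no adjusted p for Oprm1 in 5 comparisons and for Pnoc in 1. In whole brain, fewer cells of a type and less RNA per cell cannot be told apart.

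**Figure D2:**
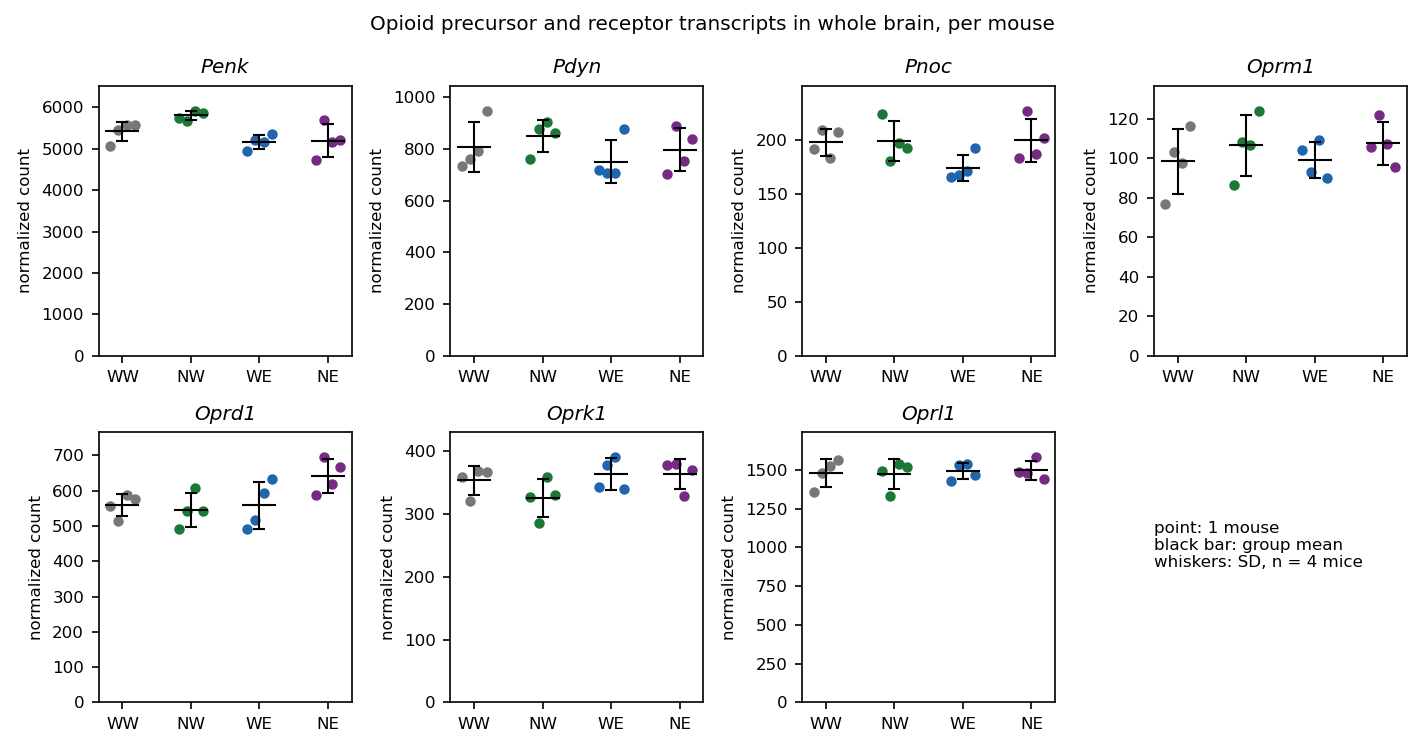
TMM-normalized counts of the 7 opioid genes, 1 panel per gene with the axis from 0, 1 point per mouse, black bars at the group mean and whiskers for the SD (n = 4 mice). The 4 NW mice lie above all 4 WW mice in Penk. In both Oprd1 and Oprk1 3 of the 4 NE mice lie above all WW mice. In both Pdyn and Pnoc 3 of the 4 Water-Ethanol mice lie below all WW mice. Apart from Penk in NW against WW, the groups of each pair compared overlap in every gene.

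Penk, the enkephalin precursor, was lowest with ethanol and highest with nicotine alone. Its normalized counts were 5073, 5450, 5569 and 5580 in the WW mice and 5751, 5676, 5924 and 5875 in the NW mice. They were 4945, 5212, 5160 and 5357 in Water-Ethanol, and 4725, 5689, 5162 and 5216 in NE. All NW mice thus stood above all WW mice, and 3 of the 4 NE mice stood below all NW mice, with NE replicate 2 as the exception. Across all genes, the groups did not overlap in 5.98% for NW minus WW, so a separation of this kind was not rare. No other opioid gene fully separated the groups of any of the 5 pairs compared. The background of such separations was 10.8% for Water-Ethanol minus WW, 10.7% for NE minus WW, 3.49% for NE minus Water-Ethanol and 7.41% for NE minus NW. Penk was higher in NW than in WW by 0.10 ± 0.04 on the log2 scale (SE; 95% interval 0.00 to 0.19; edgeR adjusted p = 0.591). The exact permutation test of the same mice gave p = 0.0286, the smallest that 4 against 4 allows. In NE against NW the change was -0.16 ± 0.05 (interval -0.27 to -0.04; edgeR adjusted p = 0.293, exact permutation p = 0.0571).

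Over all 16 mice the ethanol effect on Penk was -0.11 ± 0.03 on the log2 scale, a difference of -7.40% with an interval of -11.9% to -2.67%. It had the smallest adjusted p of any opioid gene in any comparison, 0.0689 by edgeR (unadjusted p = 0.00446), and the exact permutation test stratified by nicotine gave p = 0.00653. The call depended on the processing. DESeq2 gave an adjusted p of 0.0315 with the same change of -0.11. With the striatum and cerebellum scores as covariates the edgeR value was -0.10 with an adjusted p of 0.0418, where 6.91% of all genes were called. With the cortex and hippocampus score as covariate, which was itself lower with ethanol, it was -0.06 with an adjusted p of 0.424. Without WW replicate 1 the adjusted p was 0.0434 (4.42% of all genes called), and without NE replicate 2 it was 0.0227 (5.53%). Without the mice low in cerebellum markers, WW replicate 4 and NW replicate 3, it was 0.101 with a change of -0.10. The striatum score came from 11 markers of medium spiny neurons of both pathways, not of the Penk neurons alone. It ran from -0.11 to 0.17 in WW, -0.01 to 0.12 in NW, -0.12 to 0.05 in Water-Ethanol and -0.09 to 0.12 in NE. It differed with ethanol by -0.04 (exact p = 0.448). In the pairs that make up the effect, Penk changed by -0.06 ± 0.04 in Water-Ethanol against WW (adjusted p = 0.415) and by -0.16 in NE against NW. The interaction was -0.09 ± 0.07 (adjusted p = 0.849), so the ethanol effect was not shown to differ with nicotine.

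Pdyn, the dynorphin precursor, had no difference that passed the test in any comparison. It had 732, 760, 790 and 947 normalized counts in WW, 759, 875, 901 and 860 in NW, 716, 706, 705 and 874 in Water-Ethanol, and 704, 888, 753 and 838 in NE. In each of WW and Water-Ethanol replicate 4 stood above the other mice, and the 3 lower Water-Ethanol mice lay below every WW mouse. The ethanol effect was -0.10 ± 0.06 on the log2 scale (interval -0.23 to 0.04; adjusted p = 0.384) and the nicotine effect 0.08 ± 0.06 (interval -0.06 to 0.21; adjusted p = 0.741). The ethanol effect on Pdyn was -0.05 without WW replicate 4 (adjusted p = 0.615), and with the cortex and hippocampus score as covariate it turned to 0.06 (adjusted p = 0.611).

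Pnoc, the nociceptin precursor, was lowest in Water-Ethanol. Its normalized counts were 191, 209, 183 and 207 in WW and 224, 180, 197 and 192 in NW. They were 166, 167, 171 and 192 in Water-Ethanol and 183, 227, 186 and 202 in NE. The 3 lowest Water-Ethanol mice stood below every mouse of the other groups, and Water-Ethanol replicate 4 lay within their range. The change was -0.18 ± 0.09 in Water-Ethanol against WW (interval -0.36 to 0.01; edgeR adjusted p = 0.278) and 0.19 ± 0.09 in NE against Water-Ethanol (interval -0.01 to 0.39; adjusted p = 0.834). In NE against WW it was 0.01 ± 0.09 and in NW against WW 0.00 ± 0.09, both log2 fold changes. The interaction, 0.19 ± 0.13, had an adjusted p of 0.832. Without NE replicate 2 the change in NE against Water-Ethanol was 0.12 and the interaction 0.12.

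Oprd1, the delta receptor, was highest in the NE mice. They had 588, 695, 618 and 666 normalized counts, against 556, 515, 589 and 575 in WW, 491, 542, 608 and 542 in NW, and 491, 517, 595 and 633 in Water-Ethanol. Of the NE mice 3 stood above all WW mice and above all NW mice, and 2 above all Water-Ethanol mice. Oprd1 was higher in NE than in WW by 0.20 ± 0.07 on the log2 scale (interval 0.06 to 0.34; edgeR adjusted p = 0.159, exact permutation p = 0.0571). It was higher in NE than in NW by 0.23 ± 0.08 (adjusted p = 0.279) and than in Water-Ethanol by 0.20 ± 0.08 (adjusted p = 0.834). With either substance alone the change against WW was -0.04 ± 0.07 in NW and 0.00 ± 0.08 in Water-Ethanol. The interaction term, which tests whether the effects add up, was 0.24 ± 0.12 (interval -0.01 to 0.48; adjusted p = 0.749). Since the study reports a higher ethanol intake in NE than in Water-Ethanol mice, this term does not compare equal doses. These comparisons share the NE mice, so they are not separate evidence. Under every alternative run, the change in NE against WW stayed positive, between 0.16 and 0.26, with adjusted p values between 0.0718 and 0.330. The other contrasts were less stable: with the cortex and hippocampus score as covariate, the change in NE against Water-Ethanol was 0.06 (adjusted p = 0.884) and the interaction 0.13 (adjusted p = 0.931). The ethanol effect on Oprd1 was 0.12 ± 0.06 (adjusted p = 0.230), and it reached 0.23 with an adjusted p of 0.0458 with that covariate, under which 2.97% of all genes were called.

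Oprk1, the kappa receptor, was lowest in NW. The NW mice had 327, 286, 359 and 330 normalized counts, the WW mice 360, 320, 368 and 367, the Water-Ethanol mice 343, 379, 391 and 341, and the NE mice 379, 379, 329 and 370. NW replicate 2 stood below every other mouse. Of the NE mice 3 stood above all WW mice and above all NW mice, and the groups overlapped. The change was -0.12 ± 0.08 in NW against WW (interval -0.31 to 0.06; adjusted p = 0.717) and 0.17 ± 0.08 in NE against NW (interval -0.02 to 0.35; adjusted p = 0.457). In NW against WW it was -0.07 without NW replicate 2 and -0.03 with the striatum and cerebellum scores as covariates (adjusted p = 0.936), and in NE against NW it was 0.11 without NW replicate 2. The ethanol effect was 0.11 ± 0.06 (interval -0.01 to 0.22; adjusted p = 0.260).

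Oprl1, the nociceptin receptor, was the steadiest of the receptors. Its group means were 1481 ± 90.2 normalized counts in WW, 1471 ± 96.7 in NW, 1492 ± 52.9 in Water-Ethanol mice and 1497 ± 61.4 in NE (mean ± SD over 4 mice each). The log2 fold changes of the 8 comparisons lay between -0.01 and 0.03. The ethanol effect was 0.02 ± 0.04 with an interval of -4.02% to 7.28% in percent change, and the nicotine effect -0.01 ± 0.04 with an interval of -5.76% to 5.34%.

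Oprm1, the mu receptor and main target of morphine, had the widest intervals. It had 76.7, 103, 97.7 and 116 normalized counts in WW, 86.4, 108, 107 and 124 in NW, 104, 93.2, 109 and 90.2 in Water-Ethanol, and 106, 122, 107 and 95.3 in NE. The lowest mouse was WW replicate 1 and the highest NW replicate 4, and all groups overlapped. Its nicotine effect was 0.11 ± 0.09 (interval -0.09 to 0.31; adjusted p = 0.740) and its ethanol effect 0.01 ± 0.09 (interval -0.18 to 0.21; adjusted p = 0.948). A difference as large as 35.6% in NW against WW lies inside the interval, so a difference of that size cannot be told from none with these mice.

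By role, the ethanol effect was negative for 3 of 3 precursors, from -0.11 to -0.08 on the log2 scale, and positive for 4 of 4 receptors, from 0.01 to 0.12. Except for Penk every interval included 0, and 50.8% of all genes were higher. The sign turned for Pdyn with the cortex and hippocampus covariate and for Oprm1 and Oprl1 when single mice were left out. The ethanol comparisons without and with nicotine share no mice: Water-Ethanol minus WW and NE minus NW had the same sign in 6 of the 7 genes, against 64.1% of 15243 genes. For nicotine without and with ethanol the same held in 4 of 7, against 53.9% of 15216 genes. These shares describe the list and are not a test of it.

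**Figure D3:**
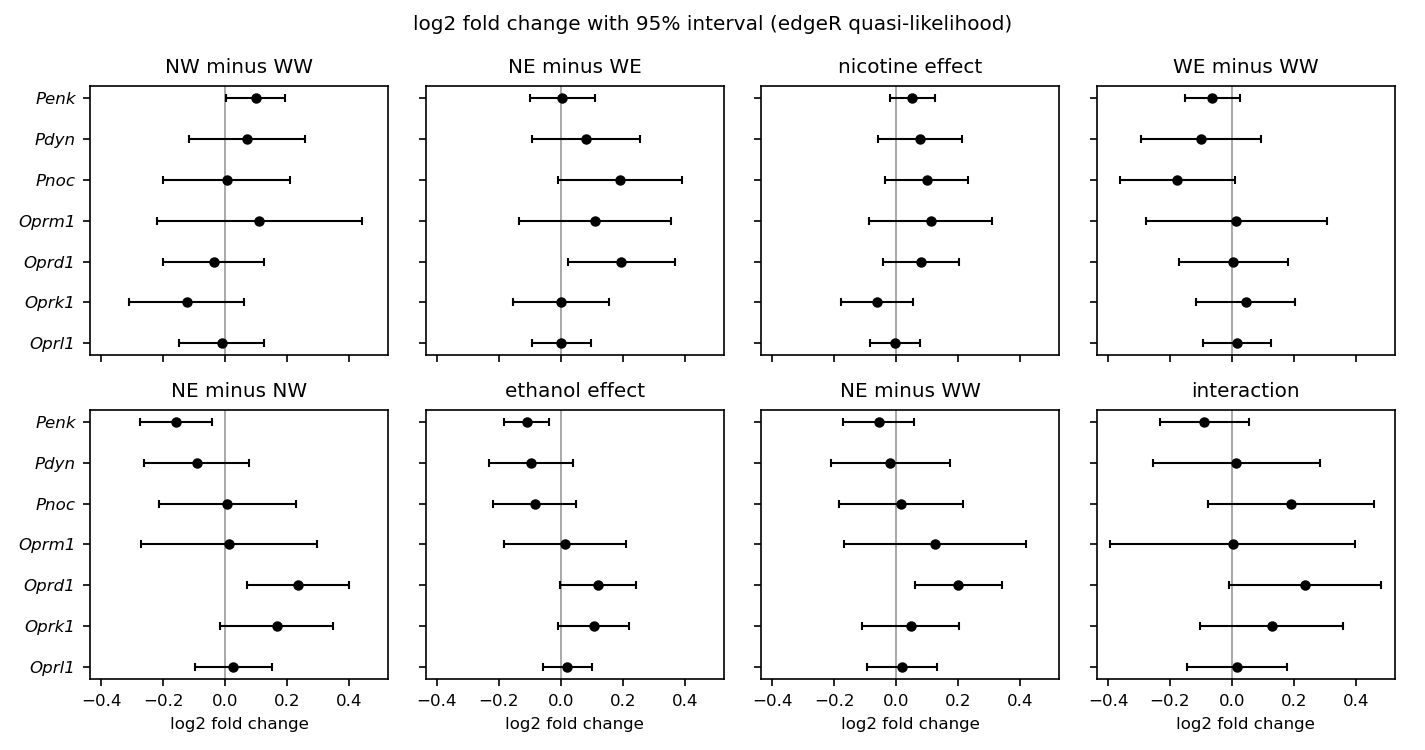
log2 fold changes of the 7 opioid genes with 95% intervals from edgeR's quasi-likelihood test, 1 panel for each of 8 comparisons, with the vertical line at 0 for no change. Intervals clear of 0 are those of Penk in NW minus WW, NE minus NW and the ethanol effect, and of Oprd1 in NE minus NW, NE minus Water-Ethanol and NE minus WW, and none of these had an adjusted p under 0.05.

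The genes around the peptides and receptors were taken as a list of 48: the related precursor Pomc, enzymes that cut precursors, peptidases that break opioid peptides down, G proteins, channels, regulators and effectors of signalling. All 48 were tested in each comparison. The numbers called were 0 in NW minus WW, 2 in Water-Ethanol minus WW, 1 in NE minus WW, 0 in NE minus Water-Ethanol, 0 in NE minus NW, 2 for the ethanol effect, and 0 for the nicotine effect and the interaction. Over all genes 0.457% were called in Water-Ethanol minus WW, 0.313% in NE minus WW and 4.5% for the ethanol effect. These calls fell on 2 genes. The median log2 fold change of the list for the ethanol effect was 0.02, beside 0.00 over all genes tested, and 22.9% of the list had an unadjusted p under 0.05, as did 22.9% of all genes. In Water-Ethanol minus WW that share was 29.2% of the list against 19.3% of all genes, in NE minus WW 29.2% against 17.5%, and in NW minus WW 14.6% against 8.44%. In NE minus Water-Ethanol it was 8.33% against 5.8%, in NE minus NW 8.33% against 11.9%, for the nicotine effect 16.7% against 10.3%, and for the interaction 10.4% against 6.76%. These shares describe the list and were not tested.

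Furin, a protease that cuts precursor proteins at basic residues in the secretory pathway, was higher in both ethanol groups. It had 1161, 1164, 1171 and 1167 normalized counts in WW and 1218, 1165, 1166 and 1222 in NW. The Water-Ethanol mice had 1393, 1328, 1487 and 1481 and the NE mice 1455, 1407, 1491 and 1342. All 8 mice with ethanol stood above all 8 without, and the share of all genes that separate in this way was not determined. Its ethanol effect was 0.27 ± 0.03 on the log2 scale (adjusted p = 0.000214), and the change was 0.29 ± 0.05 in Water-Ethanol against WW (adjusted p = 0.0357) and 0.29 ± 0.04 in NE against WW (adjusted p = 0.0372), comparisons that share the WW mice. In NE against NW the change was 0.26 ± 0.05 (adjusted p = 0.165). Furin kept an adjusted p under 0.05 for the ethanol effect under every alternative run (at most 0.00614). In the pairs with WW its adjusted p reached 0.180 under the alternatives. Of the enzymes better known for opioid precursors, Pcsk1 was at 0.13 ± 0.06 (adjusted p = 0.177), Pcsk2 at -0.08 ± 0.03 (adjusted p = 0.124) and Cpe at -0.08 ± 0.03 (adjusted p = 0.151) for the ethanol effect. These proconvertases and the carboxypeptidase were named after their values were seen.

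Rgs4, which speeds the return of inhibitory G proteins to rest, was lower with ethanol. Its group means were 13902 ± 593 normalized counts in WW, 13253 ± 1292 in NW, 10992 ± 924 in Water-Ethanol mice and 11838 ± 1267 in NE (mean ± SD over 4 mice each). The highest Water-Ethanol mouse, at 11800, lay below the lowest WW mouse, at 13055. Across all genes these groups did not overlap in 10.8%. The change was -0.33 ± 0.06 in Water-Ethanol against WW (adjusted p = 0.0424) and -0.25 ± 0.05 for the ethanol effect (adjusted p = 0.0172). In NE against WW it was -0.23 ± 0.06 (edgeR adjusted p = 0.118). There Rgs4 was called with DESeq2 (adjusted p = 0.0255, 4.3% of all genes called). It was also called by edgeR with the striatum and cerebellum scores as covariates (adjusted p = 0.0108, 1532 genes called). The highest adjusted p under the alternatives was 0.33. In NE against NW the change was -0.16 ± 0.08 (adjusted p = 0.451), and these groups overlapped. With the cortex and hippocampus score as covariate the ethanol effect on Rgs4 was -0.14 with an adjusted p of 0.161.

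Pomc, the precursor of beta-endorphin, is made in a few hypothalamic neurons and in the pituitary, and was named after its values were seen. It had 25.9, 31.7, 28.3 and 30.4 normalized counts in WW, 49.4, 40.3, 85.0 and 33.5 in NW, 45.0, 43.6, 36.7 and 25.5 in Water-Ethanol, and 44.6, 23.0, 38.7 and 31.4 in NE. All NW mice stood above all WW mice, and across all genes these groups did not overlap in 5.98%. The highest was NW replicate 3, the mouse with the highest pituitary score. Pomc is itself among the 6 markers of that score, so the score is not independent of the Pomc level. The part of this mouse in the result was not tested beyond leaving out mice. The change of Pomc in NW against WW was 0.82 ± 0.28 (edgeR adjusted p = 0.420), and it ran from 0.48 to 0.98 under the alternatives. Without WW replicate 4 and NW replicate 3 it was 0.51 (edgeR adjusted p = 0.472). The study, which used Cuffdiff2, reported Pomc as upregulated in NW.

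**Figure D4:**
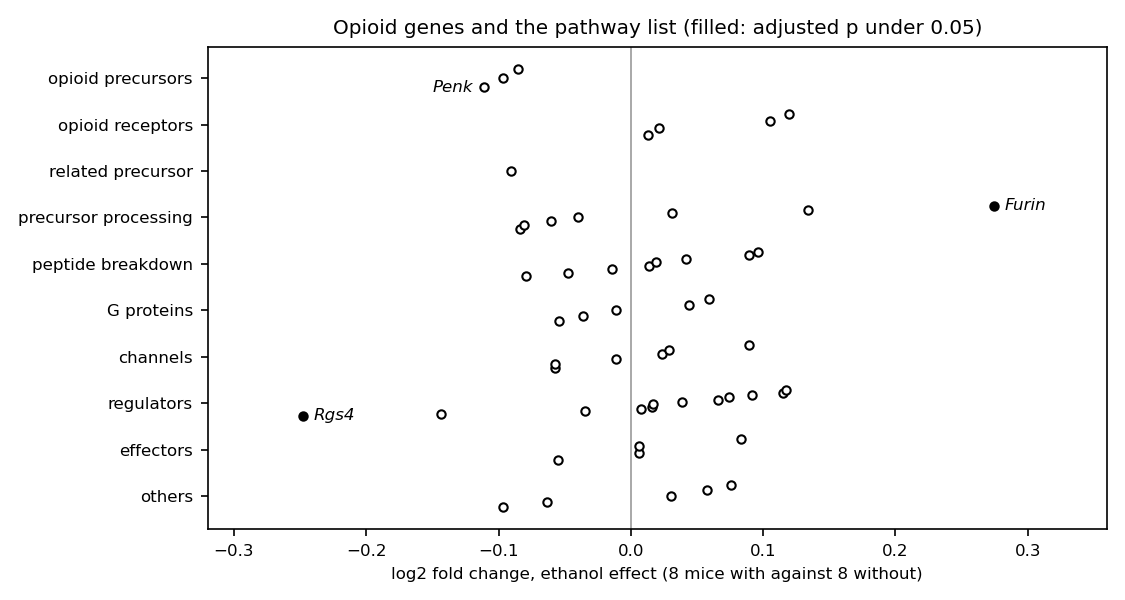
log2 fold change of the ethanol effect for the opioid precursors and receptors and for the 48 genes of the pathway list, 1 row per group of genes, with filled points for an adjusted p under 0.05. Furin at 0.27 and Rgs4 at -0.25 are the filled points, and Penk, the lowest precursor at -0.11, is open.

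Between mice of a group, Penk, Pdyn and Oprd1 were positively correlated, short of the adjusted threshold by Pearson's r. Pearson's r was computed on log2 normalized counts over the 16 mice after group means were removed, for 21 pairs. Penk and Pdyn had r = 0.71 (permutation p = 0.00871, adjusted over the pairs 0.061) and Spearman's rho = 0.75 (p = 0.00446, adjusted 0.0477), and r was 0.62 without NE replicates 1 and 2. Pdyn and Oprd1 had r = 0.72 (permutation p = 0.00374, adjusted 0.061) and rho = 0.66 (p = 0.0131, adjusted 0.092), with r = 0.70 without WW replicate 4 and Water-Ethanol replicate 4. Penk and Oprd1 had r = 0.61 (permutation p = 0.00784, adjusted 0.061) and rho = 0.72 (p = 0.00454, adjusted 0.0477), with r = 0.53 without NE replicates 1 and 2. On log2(FPKM + 1) the adjusted p of rho rose to 0.132 for Penk and Pdyn and to 0.342 for Penk and Oprd1. By the adjusted Pearson p, 0 of 21 pairs passed 0.05. Between 0 and 3 did when single mice were left out.

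The same was done for each gene against scores of 5 brain regions, 35 relations in all. Pdyn followed the cortex and hippocampus score, with r = 0.80 (permutation p = 0.00013, adjusted 0.00455) and rho = 0.83 (p = 0.00046, adjusted 0.0161), and r was 0.81 without NW replicates 1 and 3. That was the only relation of the 35 to pass by the adjusted Pearson p. Penk against the same score had r = 0.58 (permutation p = 0.00866, adjusted 0.0606) and rho = 0.78 (p = 0.00107, adjusted 0.0187), with r = 0.69 without those mice, and on log2(FPKM + 1) its rho had an adjusted p of 0.0901. Against the striatum score Penk had r = 0.73 (permutation p = 0.00791, adjusted 0.0606) with rho = 0.71 (p = 0.00803, adjusted 0.0562), and r was 0.64 without WW replicate 4 and NE replicate 2. Pdyn against it had r = 0.73 (permutation p = 0.00722, adjusted 0.0606), rho = 0.63 (p = 0.0259, adjusted 0.12) and r = 0.53 without the same mice. The points of each relation come from the same libraries, and whether tissue make-up or RNA per cell differed between the mice was not tested.

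**Figure D5:**
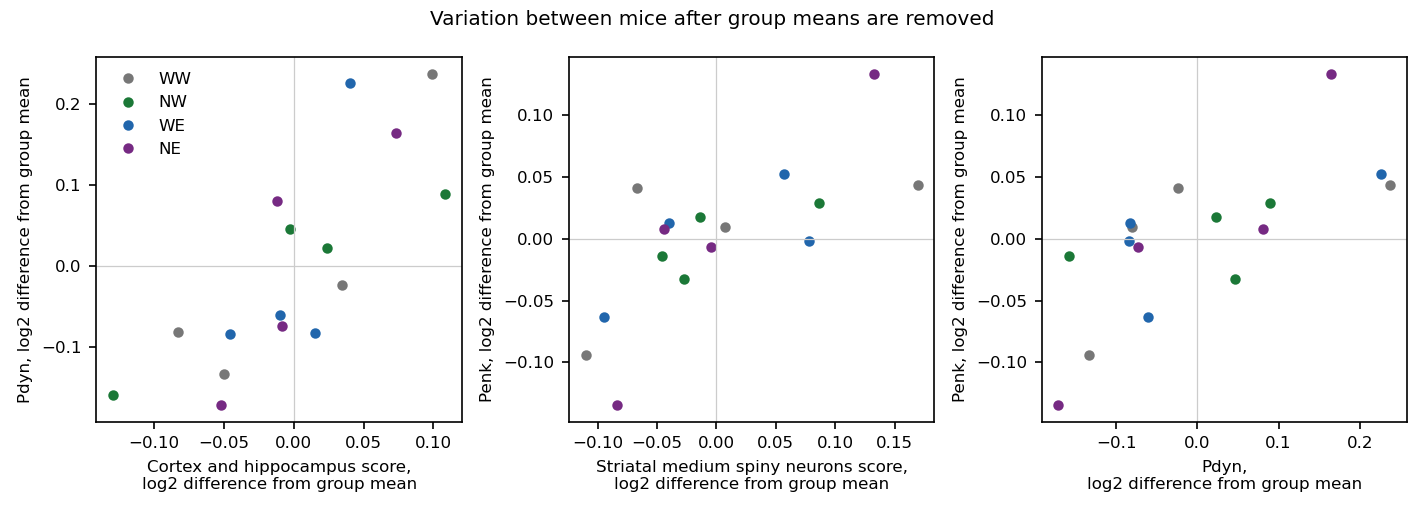
Differences of single mice from their group mean on the log2 scale: Pdyn against the cortex and hippocampus score, Penk against the striatum score, and Penk against Pdyn, with 16 mice coloured by group. The points rise from lower left to upper right in each panel, with r = 0.80, 0.73 and 0.71.

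The genes with patterns most like each opioid gene were ranked by Pearson's r over the same 16 mice, among 13391 genes with enough counts, as a description. Nearest to Penk was Gnal (r = 0.92), the G protein subunit that couples dopamine and adenosine receptors to adenylyl cyclase in striatal neurons, followed by Ndufa8 (0.88) and Gna11 (0.88). Mmp17 (0.91), Rhbdd2 (0.91) and Hpcal4 (0.91) were nearest to Pdyn. For Pnoc they were Cd4 (0.85), Aprt (0.83) and 2210404O09Rik (0.82). Among the receptors, Oprd1 was nearest to Usp12 (0.86), Xpot (0.86) and E130311K13Rik (0.83), and Oprm1 to Gpr34 (0.86), Ap3s2 (0.84) and Rasl10b (0.84). Oprk1 had Fbxw17 (0.83), Dmrta2 (0.80) and Mogs (0.77), and Oprl1 had Tex40 (0.87) and Cd84 (0.81). Each is the highest of many values, so the size of r is no evidence by itself.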

How the data were processed

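The authors trimmed reads with Trimmomatic 0.32, aligned them to GRCm38 (mm10) with TopHat2, and deposited whole read counts per gene, without normalization, and FPKM per gene from the Cufflinks tools. The counting program and its strand setting are not given in the sources used here; the study's methods name a stranded kit and the labels an unstranded one. Groups came from the labels, and the numbering of mice within groups is arbitrary.

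Counts were analysed with R 4.3.3 and edgeR 4.0.16 (quasi-likelihood test, TMM factors, default filter on low counts, Benjamini-Hochberg adjustment over all genes tested), in fits of the 8 mice compared, or of all 16 for factor effects. The study itself used Cuffdiff2, which needs reads. Normalized counts are scaled to the mean library size. The SE of a log2 fold change is its size divided by the square root of F, and intervals are 95%. Single genes were compared by exact two-sided permutation of the 70 assignments, within the strata of the other factor for factor effects. Correlations used 100000 permutations within groups. Named were the 7 opioid genes, pathway genes with an adjusted p under 0.05 in any comparison, and the 3 nearest genes of each opioid gene with a mean normalized count of at least 50, except a neighbour of Oprl1 that is not reported here. Pomc, Pcsk1, Pcsk2 and Cpe were named in addition, after their values were seen. Scores are mean centred log2 levels of marker genes. Alternatives were DESeq2 1.42.0, RLE factors, no filter, a mean count of at least 100, limma 3.58.1 on log2(FPKM + 1) or log2(FPKM + 0.1), a fit of all mice, scores as covariates and leaving out each mouse. The cortex and hippocampus covariate and the fit without both mice low in cerebellum markers were added after the data were seen. Sequences were read with Biopython 1.88, and other steps used scipy 1.17.1 and pandas 2.3.3 in Python 3.11.15. Tried on simulated data were the edgeR, DESeq2 and limma fits of a single pair of groups, the permutation correlations and the exact test of 4 against 4. The fits of factor effects and those with covariates were not. The opioid genes and all lists were chosen with earlier results of these data known.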

Additional observations from a re-analysis of the deposited data

Results flagged for a closer look

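The Pdyn level of Water-Ethanol replicate 4, 874 normalized counts, stood far above the other Water-Ethanol mice, which lay between 705 and 716. Its gap to the nearest of them took 0.932 of the group's range, over the critical value of 0.829 for 4 samples. It was the only such mouse in 28 combinations of gene and group, of which chance gives about 1 in 20.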

How the results depend on the processing

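No paired analysis was possible because the labels give no replicate numbers that the groups share. The number of opioid genes called stayed at 0 in all comparisons and alternatives run except the ethanol effect, where it was 1 with DESeq2, 1 with the striatum and cerebellum scores as covariates and 1 with the cortex and hippocampus score (Oprd1 there, Penk before), and between 0 and 1 when a mouse was left out (Penk without WW replicate 1 or NE replicate 2). With group means kept in, 1 pair of opioid genes and 2 relations with region scores passed. Leaving out a mouse gave 0 to 3 pairs and 1 to 3 relations. Of 1203 values of log2 fold changes under alternatives, 1081 kept their sign and side of the threshold, 5 passed it newly, 0 lost it and 117 changed sign, in 29 of 56 combinations of gene and comparison, none of them called. Of those that kept their sign, 281 moved by over 1.5 times. The cause of the sign changes was not tested. Low counts limit Oprm1 and Pnoc most. The number of all genes called moved far more than that of the opioid genes: with DESeq2 it was 121 against 0 in NW minus WW, 606 against 70 in Water-Ethanol minus WW, 507 against 48 in NE minus WW, 2 against 0 in NE minus Water-Ethanol, 93 against 0 in NE minus NW, 1073 against 702 for the ethanol effect, 98 against 0 for the nicotine effect and 1 against 0 for the interaction. Over all alternatives it ran from 0 to 121 in NW minus WW, 0 to 797 in Water-Ethanol minus WW, 0 to 1532 in NE minus WW, 0 to 3 in NE minus Water-Ethanol, 0 to 93 in NE minus NW, 280 to 1077 for the ethanol effect, 0 to 98 for the nicotine effect and 0 to 1 for the interaction. Furin and Rgs4 lost their calls in Water-Ethanol minus WW with limma (adjusted p at most 0.158), with the cortex and hippocampus covariate (0.18 and 0.271) and when any of several single mice was left out, and Rgs4 also in the fit of all mice, with the same sign throughout. Furin lost its call in NE minus WW with limma on filtered values and when any of several single mice was left out. Rgs4, not called in NE minus WW, was called there with DESeq2 and with the striatum and cerebellum scores as covariates.

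The values (log2 fold changes) that changed sign follow. With the striatum and cerebellum scores as covariates, NW minus WW was -0.0227 for Pnoc, -0.0385 for Oprm1 and 0.0308 for Oprd1, Water-Ethanol minus WW was -0.0133 for Oprd1, NE minus WW was 0.0188 for Pdyn and -0.0253 for Pnoc, and NE minus Water-Ethanol was -0.0121 for Penk, -0.00929 for Oprk1 and -0.00387 for Oprl1. With the cortex and hippocampus score as covariate, Water-Ethanol minus WW was 0.00991 for Penk and 0.183 for Pdyn, NE minus WW was 0.0824 for Pdyn, NE minus Water-Ethanol was -0.141 for Penk, -0.161 for Pdyn and -0.0117 for Pnoc, NE minus NW was -0.000644 for Pnoc, the ethanol effect was 0.058 for Pdyn, and the interaction was -0.145 for Pdyn, -0.127 for Oprm1 and -0.0152 for Oprl1. Without both mice low in cerebellum markers, NE minus WW was 0.064 for Pdyn, and the interaction was -0.0455 for Pdyn and -0.0869 for Oprm1. With limma on log2(FPKM + 1), with the filter or without, Water-Ethanol minus WW was -0.0143 for Oprm1, and NE minus Water-Ethanol was -0.0109 for Penk, -0.00834 for Oprk1 and -0.00451 for Oprl1. With limma on log2(FPKM + 0.1), Water-Ethanol minus WW was -0.0231 for Oprm1, and NE minus Water-Ethanol was -0.011 for Penk, -0.0108 for Oprk1 and -0.00474 for Oprl1. With DESeq2, NE minus Water-Ethanol was -0.000295 for Oprk1. With RLE factors, NE minus Water-Ethanol was -0.000937 for Oprk1 and -0.00038 for Oprl1. With no filter on low counts, Water-Ethanol minus WW was -0.000576 for Oprd1, and NE minus Water-Ethanol was -0.000314 for Oprk1. With a mean count of at least 100, NE minus Water-Ethanol was -0.00268 for Oprk1 and -0.00211 for Oprl1, and the interaction was -0.00945 for Oprm1.

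Leaving out 1 mouse at a time gave these ranges where the sign changed. For NW minus WW, Pnoc ran from -0.0598 to 0.0497, Oprd1 ran from -0.102 to 0.0101 and Oprl1 ran from -0.0488 to 0.0359. For Water-Ethanol minus WW, Oprm1 ran from -0.0839 to 0.102, Oprd1 ran from -0.0612 to 0.0611, Oprk1 ran from -0.00286 to 0.0723 and Oprl1 ran from -0.0232 to 0.0429. For NE minus WW, Pdyn ran from -0.0753 to 0.064, Pnoc ran from -0.051 to 0.052, Oprk1 ran from -0.000382 to 0.0899 and Oprl1 ran from -0.0212 to 0.0436. For NE minus Water-Ethanol, Penk ran from -0.043 to 0.0453, Oprk1 ran from -0.0304 to 0.0466 and Oprl1 ran from -0.0268 to 0.0195. For NE minus NW, Pnoc ran from -0.0587 to 0.0707, Oprm1 ran from -0.077 to 0.0961 and Oprl1 ran from -0.0221 to 0.0502. For the ethanol effect, Oprm1 ran from -0.0364 to 0.0571 and Oprl1 ran from -0.00195 to 0.0346. For the nicotine effect, Oprl1 ran from -0.0235 to 0.0198. For the interaction, Pdyn ran from -0.0713 to 0.0919, Oprm1 ran from -0.089 to 0.0984 and Oprl1 ran from -0.0361 to 0.052.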
